A study of Mus musculus with 10 samples.

Results

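A set of 10 genes of apoptotic-cell uptake and scavenging was followed in RAW264.7 cells, which are a macrophage-like mouse cell line: the receptor tyrosine kinase Mertk, its ligands Gas6 and Pros1, the bridging proteins Mfge8 and Thbs1, the integrin subunit Itgav, and the scavenger and lectin receptors Cd36, Msr1, Mrc1 and Scarf1. They were chosen by name, as every probe that is not a control and carries one of these symbols. This gave 12 probes for 10 of the 36315 gene names on the array. For 24674 of the 55681 probes no current symbol was found and the name in the file was kept. RNA was measured on 10 single-channel arrays in 5 groups of 2. Per the labels, Dex (dexamethasone), FF (fluticasone furoate), VSG22 or VSGC12 was given to the cells at 100 nM and, after 1 hour, LPS (lipopolysaccharide, a bacterial trigger of macrophage activation) was added at 1 µg/ml, with RNA taken at 16 hours. EtoH is read as solvent without glucocorticoid. Whether EtoH cells received LPS is not stated, no group is described as unstimulated, and RAW264.7 is a transformed line. A change against EtoH may thus hold an effect of LPS, which cannot be told apart here from that of the compound. The labels do not name separate cultures as replicates, so p-values measure the spread between these arrays, which may be technical.

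Macrophages clear dying cells by efferocytosis. Soluble bridging proteins attach to phosphatidylserine exposed on the dying cell and present it to receptors on the macrophage: Gas6 and protein S (Pros1) serve the kinase Mertk, Mfge8 serves integrins that contain Itgav, and thrombospondin 1 (Thbs1) links to Cd36 and Itgav. Scavenger receptors such as Cd36, Msr1 and Scarf1 bind modified lipoproteins as well as dying cells, while the mannose receptor Mrc1 takes up glycoproteins with exposed mannose. Glucocorticoids act through a nuclear receptor and are known to favour this clearing activity in macrophages.

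Between arrays, the 75th percentile of the processed signal varied from 315 to 428, and between 40.1% and 44.4% of spots were well above background, with 0 saturated. Replicates differed more in Dex (SD of the log2 difference 0.61) than in the other groups (0.31 to 0.38). All 10 macrophage markers examined were well above background in every group, and their summed signal was 635 to 642 times the array 75th percentile in EtoH and 768 to 833 in the other groups. Taken singly, 4 were higher and 2 lower for the mean of the 4 glucocorticoids (limma adjusted p below 0.05). The 2 were Ptprc (log2 change -0.68) and Adgre1 (-0.24). That is 60% of these markers, and 44.2% of all genes passed. None of the 3 B cell or 4 epithelial markers was well above background on all arrays of a group. The 5 T cell markers summed to 17.0 in EtoH and 17.1 to 18.6 otherwise, with Cd8a and Cd3d undetected, and the 5 fibroblast markers to at most 0.66 on any array. Of 4 neutrophil markers, S100a9 stayed under the detection limit on every array, and the summed signal was 55.7 to 71.2 in EtoH and 70.9 to 164 under glucocorticoids. For 3 endothelial markers, Cdh5 and Tie1 were not well above background and the sum, carried by Kdr, was 8.002 to 8.69 in EtoH and 4.72 to 6.87 otherwise. The part of these shifts in the results was not tested, and fewer cells of a type and less RNA per cell cannot be told apart.

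The upstream sequences of Mertk and Gas6 are shown because this receptor and its ligand moved in opposite directions under every compound. RefSeq's table for GRCm38.p6 gave the 250 bases before the start for 7 of the 10 genes. Capitals mark the GC box GGGCGG read on either strand. The Mertk stretch lies at chr2:128698665-128698914 on the plus strand and the Gas6 stretch at chr8:13494536-13494785 on the minus strand.
Mertk: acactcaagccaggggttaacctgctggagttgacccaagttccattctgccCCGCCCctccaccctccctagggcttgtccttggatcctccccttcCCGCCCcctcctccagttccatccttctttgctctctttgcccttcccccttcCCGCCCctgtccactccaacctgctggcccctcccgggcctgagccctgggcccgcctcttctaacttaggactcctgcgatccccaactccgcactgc
Gas6: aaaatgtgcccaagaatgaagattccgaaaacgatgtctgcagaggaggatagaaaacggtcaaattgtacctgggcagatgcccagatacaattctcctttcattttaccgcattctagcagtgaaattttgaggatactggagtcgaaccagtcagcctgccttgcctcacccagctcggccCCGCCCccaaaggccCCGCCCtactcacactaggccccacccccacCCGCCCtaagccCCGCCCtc
Both strands of all 7 stretches were searched for 4 motifs. The hexamer AGAACA, 1 arm of the glucocorticoid receptor's site, was found in 0 of 7 and in 16.1% of the 32851 promoters in the table. The receptor's full palindromic element, which contains that hexamer, was found in 0 of 7 and in 0.00913% of promoters. The AP-1 motif TGACTCA was found in 0 of 7 and in 4.46% of promoters. The GC box was chosen after the sequences had been seen. It occurred 3 times upstream of Mertk, 4 times upstream of Gas6, and in 6 of the 7 stretches, Itgav being the exception, against 32.7% of promoters. A match is a string of letters and not a binding site, and a missing match says only that those letters are not in this window.

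Across the mean of the 4 glucocorticoids, Mertk, Pros1 and Scarf1 rose and Gas6, Thbs1, Mrc1, Cd36, Mfge8 and Itgav fell against EtoH, while Msr1 did not pass the test on the probe that represents it. Of the 10, 9 were thus called by limma at an adjusted p below 0.05. The same call was made for 44.2% of the 18028 genes tested, 21.6% higher and 22.5% lower. Of the 10, 6 were well above background in every group. Mertk, Scarf1, Thbs1 and Mrc1 entered the test only through the groups where they were high. The filter itself thus favoured a difference in these genes, and the count of 9 is a description only. The median log2 change of the 10 genes was -0.53, and that of all genes was -0.004. In 9 of the 10, the 8 glucocorticoid arrays lay on one side of both EtoH arrays, as they did for 47.6% of genes. For single compounds, 7 genes were called for Dex (32.2% of all genes), 8 for FF (37.1%), 7 for VSG22 (30.6%) and 7 for VSGC12 (35.5%). Mertk rose and Gas6, Thbs1, Mrc1, Cd36 and Itgav fell under each of the 4. These comparisons share the EtoH arrays and are not independent of each other.

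**Figure D1:**
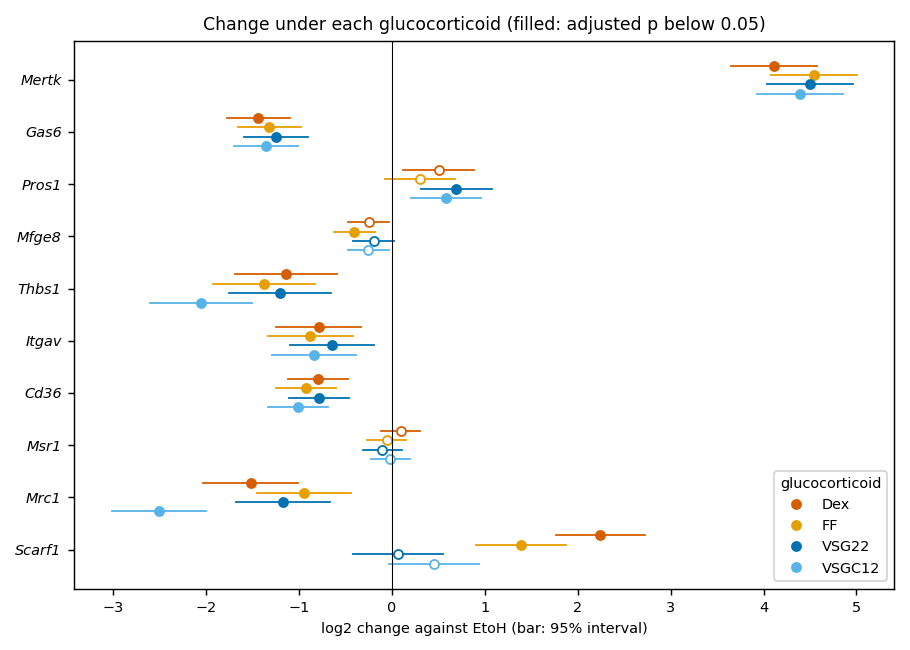
Log2 change against EtoH (x axis) for each of the 10 genes (y axis) under Dex, FF, VSG22 and VSGC12, with 95% intervals from limma; filled points have an adjusted p below 0.05. Mertk lies between 4.11 and 4.55, Gas6 between -1.44 and -1.25, and Scarf1 separates Dex at 2.24 from VSG22 at 0.06.

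**Figure D2:**
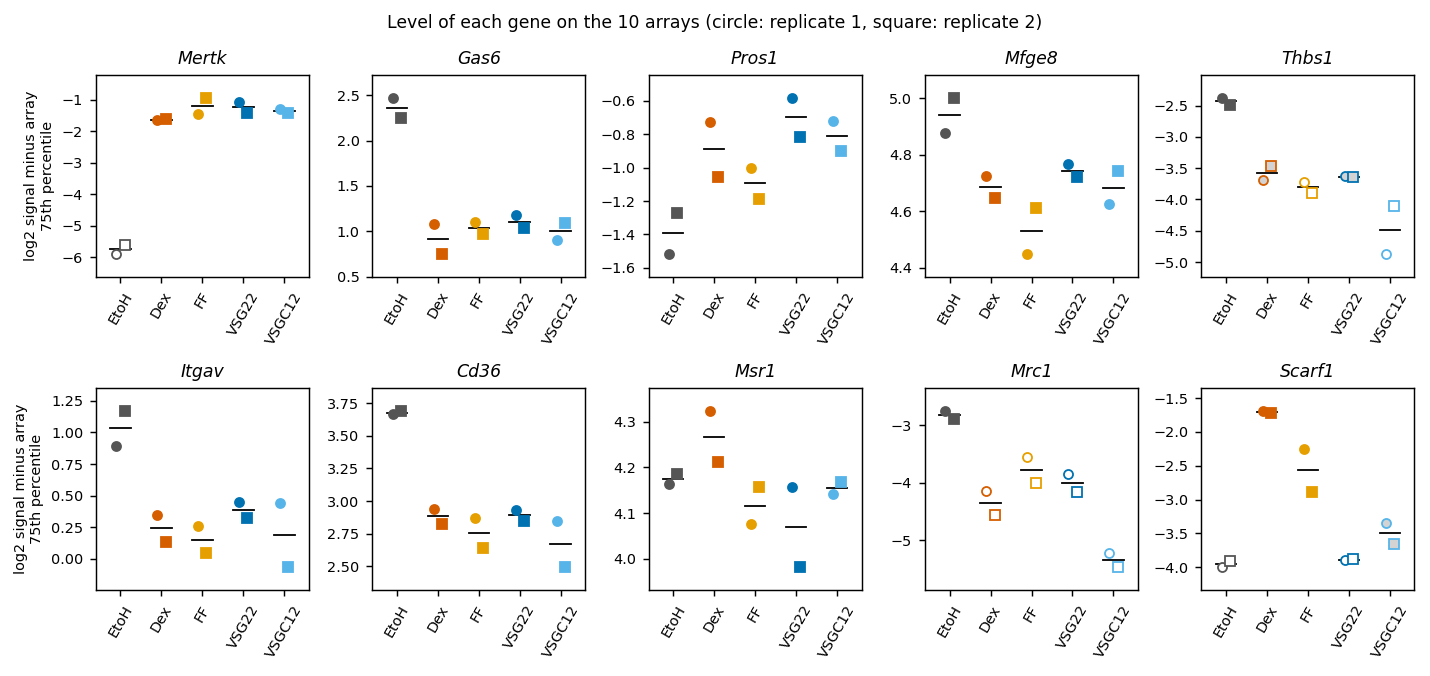
Log2 signal minus the array 75th percentile (y axis) on each of the 10 arrays by group (x axis), 1 panel per gene, with a line at the group mean. Symbols are filled where both arrays of the group were well above background, grey where 1 was and open where none was; Mertk in EtoH and Mrc1 outside EtoH are open.

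Mertk, the receptor kinase that triggers engulfment of apoptotic cells, rose under every compound. Its probe maps to chr2:128627867-128627926 (mm9, plus strand). The signal, as a percent of the array 75th percentile, was 1.70 and 2.06 in EtoH, 32.1 and 32.5 in Dex, 36.8 and 52.0 in FF, 47.6 and 37.5 in VSG22, and 41.1 and 37.5 in VSGC12. The 8 glucocorticoid arrays lay far above both EtoH arrays, which were not well above background. The fitted log2 change was 4.39 ± 0.15 (SE; limma adjusted p = 7.5e-06). Because the probe was tested only through the groups where it was high, this p is a description; without the filter on dim probes it was 7.2e-05 (limma, adjusted). Against the dimmest signal that still passed the detection limit on the EtoH arrays, Mertk was at least 4.59-fold higher. By compound it was at least 3.79-fold higher under Dex, 5.13-fold under FF, 4.96-fold under VSG22 and 4.61-fold under VSGC12. The group order was Dex, VSGC12, VSG22 and FF from low to high, and no neighbouring pair in it was called different. Normexp background correction, which adds an offset to dim signals, gave a log2 change of 1.41. Within the slides, the log2 difference was 4.52 on the first and 4.25 on the second.

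Gas6, the vitamin K-dependent ligand of Mertk, moved the other way. The probe maps to chr8:13465444-13465503 (mm9, minus strand). Its signal was 554 and 474 percent of the array 75th percentile in EtoH, 211 and 169 in Dex, 215 and 195 in FF, 226 and 205 in VSG22, and 188 and 213 in VSGC12. All 8 glucocorticoid arrays lay below both EtoH arrays, and the 4 compounds overlapped one another. The log2 change was -1.34 ± 0.11 (SE; limma adjusted p = 0.00021), a 2.53-fold lower signal. It was -1.44 for Dex, -1.32 for FF, -1.25 for VSG22 and -1.36 for VSGC12, and it held in all 21 alternatives, between -1.45 and -1.22.

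Pros1, which encodes protein S, the other ligand of Mertk, rose slightly. The probe lies at chr16:62928674-62928733 (mm9, plus strand). Signals were 35.01 and 41.5 percent in EtoH, 60.5 and 48.1 in Dex, 49.98 and 44.0 in FF, 66.8 and 56.8 in VSG22, and 60.7 and 53.5 in VSGC12. The lowest glucocorticoid array, FF replicate 2, lay just above the higher EtoH array. The log2 change was 0.52 ± 0.13 (SE; limma adjusted p = 0.016). Of the single compounds, VSG22 (0.69) and VSGC12 (0.58) passed, and Dex at 0.50 (adjusted p = 0.052) and FF at 0.30 (adjusted p = 0.18) did not. Dex passed in 4 of 21 alternatives, and the F-test among the compounds made no call (limma adjusted p = 0.50). Without EtoH replicate 1 the change was 0.40 and no longer called (adjusted p = 0.14). The VSG22 call was lost without EtoH replicate 1 or VSG22 replicate 1, and the VSGC12 call without either array of EtoH or of VSGC12.

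Mfge8, the milk-fat-globule protein that bridges phosphatidylserine to integrins, was strongly expressed and fell a little. The probe lies at chr7:86278689-86278748 (mm9, minus strand). The 2 EtoH arrays were at 2940 and 3202 percent of the array 75th percentile, and the 8 glucocorticoid arrays ran from 2187 in FF replicate 1 to 2720 in VSG22 replicate 1. The groups did not overlap, and the log2 change was -0.28 ± 0.07 (SE; limma adjusted p = 0.021). Of the single compounds only FF passed, at -0.41. The call for the mean was lost without EtoH replicate 1, without EtoH replicate 2 and without VSG22 replicate 2 (log2 changes -0.34, -0.22 and -0.27), and that for FF without EtoH replicate 2 or FF replicate 1.

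Thbs1, a secreted matrix protein that tethers dying cells to Cd36 and integrins, was dim throughout. The probe lies at chr2:117952585-117952644 (mm9, plus strand). Signals were 19.3 and 17.8 percent in EtoH, 7.73 and 9.08 in Dex, 7.60 and 6.70 in FF, 8.09 and 7.98 in VSG22, and 3.43 and 5.80 in VSGC12. It was well above background on both EtoH arrays, 1 Dex array, 1 VSG22 array and no array of FF or VSGC12. The log2 change was -1.44 ± 0.18 (SE; limma adjusted p = 0.0011; 0.0057 without the filter on dim probes). The gene entered the test only through EtoH, the group where it was high, so the p is a description. Thbs1 was at least 2.43-fold lower under FF and at least 2.01-fold lower under VSGC12. With normexp the change was -0.50. The calls for Dex and VSG22 were lost without EtoH replicate 1, that for Dex also without EtoH replicate 2 and that for VSG22 also without VSG22 replicate 2.

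Itgav, the integrin alpha V subunit, fell on both of its probes. The probe that represents it lies at chr2:83646133-83646192 (mm9, plus strand). Its signal was 186 and 225 percent in EtoH, 127 and 109 in Dex, 120 and 103 in FF, 137 and 125 in VSG22, and 136 and 95.6 in VSGC12. Every glucocorticoid array lay below both EtoH arrays. The log2 change was -0.79 ± 0.15 (SE; limma adjusted p = 0.0061). With each probe as its own feature, where 42.8% of probes were called, the second probe gave -0.89 ± 0.09 (limma adjusted p = 0.00037). The representative probe lost its call for the mean without EtoH replicate 2 (-0.65, adjusted p = 0.07), as did each compound. The VSG22 call (adjusted p = 0.043) was also lost without any 1 of the other arrays outside VSGC12, and the calls for Dex, FF and VSGC12 without replicate 2 of their own group. The representative spot lies in a patch on the VSG22 arrays and the second in a patch on the Dex arrays. A patch means here that 3 or more of the 24 nearest spots passed the detection limit in that group alone.

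Cd36, the class B scavenger receptor for oxidised lipids, fell under every compound. The probe lies at chr5:17288600-17288659 (mm9, minus strand). Signals were 1271 and 1290 percent in EtoH, 769 and 708 in Dex, 731 and 622 in FF, 762 and 721 in VSG22, and 718 and 564 in VSGC12. The 2 EtoH arrays nearly coincided and stood above the other 8. The log2 change was -0.88 ± 0.11 (SE; limma adjusted p = 0.00095), a 1.84-fold lower signal, and it kept its call in all 21 alternatives for the mean. With the array median subtracted the calls for the single compounds were lost, at -0.70, -0.82, -0.67 and -0.84 for Dex, FF, VSG22 and VSGC12.

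Msr1, the class A scavenger receptor, gave different answers on its 2 probes. The first 30 bases of each are shown because the result turns on which one is read, with positions counted along the transcript.
Msr1 probe at position 624: gacactgcttgatgttcaactccatacaga
Msr1 probe at position 3231: aagtcatcttacatccaaaactacacgtat
The first lies at chr8:40709296-40709355 and the second at chr8:40689158-40689217 (mm9, minus strand). The file lists the first for 2 RefSeq transcripts and the second for 1 of them. The first probe, the brighter, gave 1792 and 1821 percent in EtoH and 1580 to 2001 on the 8 glucocorticoid arrays, so the groups overlapped. Its log2 change was -0.02, with a 95% interval from -0.19 to 0.14 (limma adjusted p = 0.81). The second probe gave 944 and 900 percent in EtoH and 1357 to 1562 on the other 8, with no overlap. Its log2 change was 0.66 ± 0.07 (limma adjusted p = 0.00046), and it was called for each compound, Dex (30.7% of all probes), FF (35.8%), VSG22 (29.3%) and VSGC12 (34%). Within each array, the second probe minus the first was -0.97 on the log2 scale in EtoH and -0.28 on the other arrays (exact permutation test, two-sided, p = 0.022, the smallest that 2 arrays against 8 allow). This test was added after the difference had been seen. For Itgav the same exact permutation test gave p = 0.51. Of 3159 genes with several measured probes, 41.4% had some called and some not, and 14.3% had probes at least as far apart in log2 change as those of Msr1. The second probe lies in a patch on the Dex arrays, with 3 of its 24 neighbouring spots well above background on Dex arrays alone. The part of the patch in the result was not tested.

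**Figure D3:**
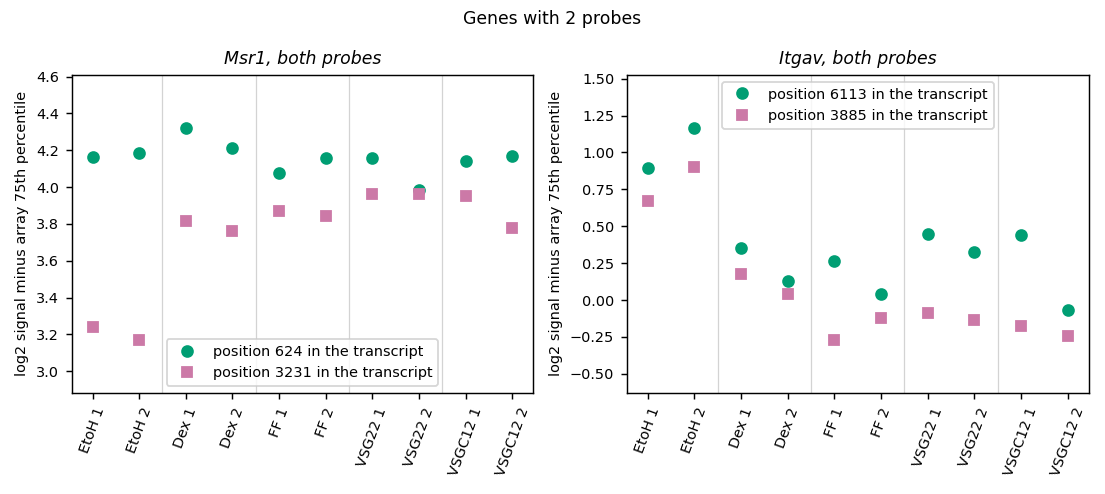
Log2 signal minus the array 75th percentile (y axis) of both probes of Msr1 (left) and Itgav (right) on each array (x axis: group and replicate). The Msr1 probe at position 3231 is lowest on the EtoH arrays while the one at position 624 stays level; both Itgav probes are highest on the EtoH arrays.

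Mrc1, the mannose receptor used as a marker of alternative activation, was detected only on the EtoH arrays. The probe lies at chr2:14253273-14253332 (mm9, plus strand). Signals were 14.8 and 13.5 percent in EtoH, 5.69 and 4.23 in Dex, 8.57 and 6.24 in FF, 6.96 and 5.60 in VSG22, and 2.69 and 2.27 in VSGC12. All 8 glucocorticoid arrays were lower, and none of them was well above background. The fitted log2 change was -1.54 ± 0.17 (SE; limma adjusted p = 0.00061), and Mrc1 was at least 1.65-fold lower. It entered the test only through EtoH, the group where it was high, so the p is a description; without the filter on dim probes it was 0.0035 (limma, adjusted). The spot sits in a patch on the EtoH arrays, where 7 of its 24 neighbours were well above background there and in no other group; 1.81% of genes had at least 3 such neighbours. Its local background was 35 on both EtoH arrays and 27.5 to 33 on the others. The part of the patch in the result was not tested, and normexp gave a change of -0.44. The FF call was lost without either EtoH array or FF replicate 2, and the VSG22 call without VSG22 replicate 2.

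Scarf1, a scavenger receptor that also binds the complement protein C1q on dying cells, rose under Dex and FF. The probe lies at chr11:75340022-75340081 (mm9, plus strand). Signals were 6.28 and 6.64 percent in EtoH, 30.9 and 30.2 in Dex, 21.1 and 13.5 in FF, 6.70 and 6.80 in VSG22, and 9.83 and 7.94 in VSGC12. Dex was highest and FF next, while VSG22 was barely above EtoH; no EtoH or VSG22 array was well above background. Scarf1 was at least 3.59-fold higher under Dex (log2 change 2.24 ± 0.20, limma adjusted p = 0.00059) and at least 1.98-fold higher under FF. The gene entered the test only through Dex and FF, the groups where it was high, so its p-values are a description. The change was 0.06 for VSG22 and 0.45 for VSGC12 (adjusted p = 0.13), and neither passed. For the mean of the 4 it was 1.04 ± 0.16 (SE; limma adjusted p = 0.012 without the filter on dim probes), and normexp gave 0.44. Within the slides, the log2 difference from EtoH was 2.30 and 2.19 for Dex, 1.75 and 1.03 for FF, 0.09 and 0.03 for VSG22, and 0.65 and 0.26 for VSGC12. The spot lies in a patch on the Dex arrays, with 3 of 24 neighbours, and 10.4% of genes had at least as many. Its local background was 30 on both Dex arrays and 31 to 41 elsewhere; the part of the patch in the result was not tested.

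At the matched dose and time, the moderated F-test over the 4 compounds called 46 of 18028 genes (0.255%), and of the 10 genes Scarf1 was among them (limma adjusted p = 0.044). Scarf1 entered this test only through Dex and FF, where it was high, so the call is a description. Without the filter on dim probes its adjusted p was 0.17 and no gene was called by limma (2005 had an unadjusted p below 0.05). With the slide, which is the replicate number, as a block, the adjusted p was 0.074 for Scarf1 and 0.043 for Mrc1. The 6 pairs of compounds gave 60 differences over the 10 genes, with p-values adjusted over all genes within a pair. Of these, 2 passed, both in Scarf1, and 13 had an unadjusted p below 0.05. Both calls rest on the entry of Scarf1 through Dex and FF and are descriptions too. Without the filter, 0 of the 10 genes passed in any pair. Scarf1 was at least 3.68-fold lower under VSG22 than under Dex (log2 difference -2.18, 95% interval -2.66 to -1.70, adjusted p = 0.017), in a pair where 0.549% of genes were called. It was also lower under VSGC12 than under Dex (-1.79, interval -2.28 to -1.31, adjusted p = 0.026; 0.394% of genes). FF against Dex gave -0.86 (interval -1.34 to -0.37, adjusted p = 0.18; 0.366% of genes). These calls did not hold throughout: the F-test call stood in 7 of 20 alternatives, VSG22 against Dex in 13 of 19 and VSGC12 against Dex in 11 of 19, and all 3 were lost without either array of EtoH or of VSG22. The F-test call was also lost without FF replicate 2, and it and that for VSGC12 against Dex without either VSGC12 array. VSGC12 and VSG22 differed in Scarf1 by 0.39 (interval -0.09 to 0.87) and in Mertk by -0.11 (interval -0.57 to 0.36); 0 genes were called between them after adjustment by limma and 1291 had an unadjusted p below 0.05. For VSG22 against FF 0% and for VSGC12 against FF 0.00555% of genes were called, none of the 10 among them. A difference that did not pass does not show that compounds act alike.

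Other genes of the pathway were taken from lists written with earlier results known. Of 26 listed receptors and opsonins for dying cells, all on the array, 19 passed the detection filter and were tested. Of these, 3 were called higher and 4 lower for the mean of the 4, with a median log2 change of -0.13. That is 36.8%, against 44.2% of all genes (21.6% higher and 22.5% lower). C1ra, a complement protease, rose by 1.22 and Fpr2, a formyl peptide receptor, by 0.67, while Cd300lb, a receptor for phosphatidylserine, fell by 1.07 and the engulfment receptor Lrp1 by 0.79. Tyro3, a relative of Mertk named after its value was seen, was at 0.37 (limma adjusted p = 0.15). Of 16 other scavenger receptors listed, 11 were tested, and 1 was higher and 4 were lower (45.5% called, median -0.07). Lrp1 and Stab1 are in both lists, so the call of Lrp1 is counted in each. Scarb1, the HDL receptor, rose by 1.04, the beta-glucan receptor Clec7a fell by 1.70, and Colec12 also fell (log2 change -1.198).

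Of 23 engulfment signalling genes, 3 were called higher and 8 lower (47.8%, against 44.2% of all genes; median -0.15). Dock1, which activates Rac during engulfment, rose by 0.82. The adaptor Bcar1 fell by 0.97, the kinase Src by 0.84 and the exchange factor Trio by 0.77; the Src spot lies in a patch on the Dex arrays. Of 15 nuclear receptor and efflux genes, 3 were higher and 7 lower (66.7% called, median -0.32). Among them the cholesterol exporters Abca1 and Abcg1 fell by 0.89 and 0.74 and the lipid-sensing receptor Ppard by 0.85. Of 18 find-me, don't-eat-me and shedding genes listed, 14 were tested, and 6 were higher and 5 lower (78.6% called, median -0.03). The fractalkine receptor Cx3cr1 was up by 1.21, the inhibitory receptor Pirb by 1.05, and the receptors S1pr2 and P2ry6 were each down, at -0.91. Of 16 alternative-activation genes listed beside Mrc1, 10 were tested, and 2 were higher and 3 lower (50% called, median -0.36). The lectins Mgl2 (0.98) and Clec10a (0.78) rose, and Il10 (-0.56) and Irf4 (-0.54) fell.

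**Figure D4:**
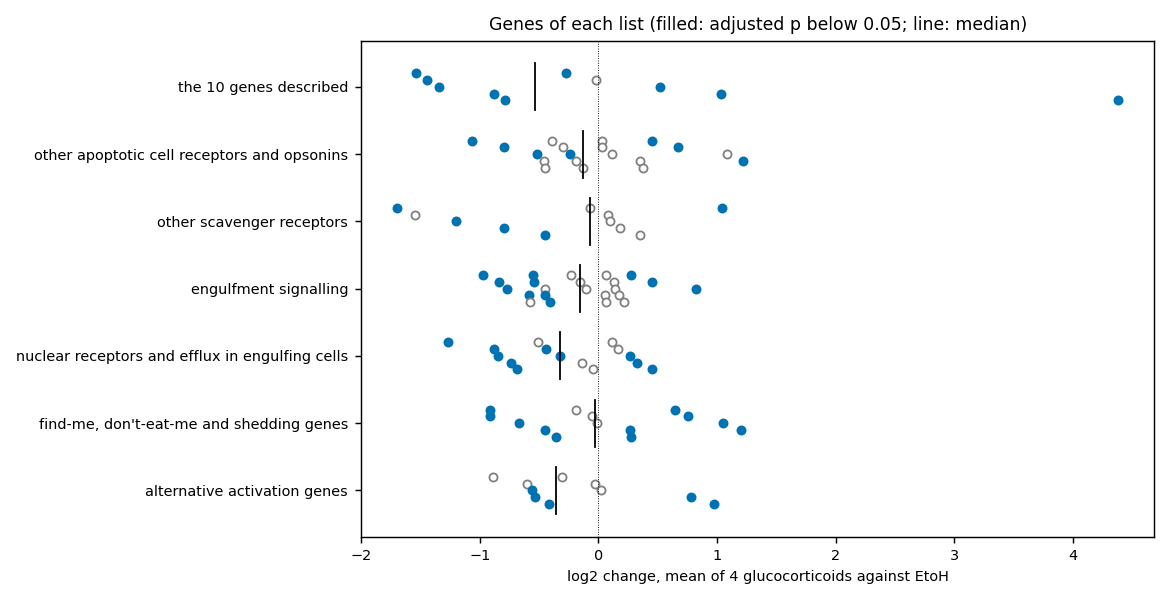
Log2 change for the mean of the 4 glucocorticoids against EtoH (x axis) of each gene in 7 sets (y axis), with a vertical line at the median of each set; filled points have an adjusted p below 0.05. The 10 genes described have a median of -0.53 and Mertk lies alone at 4.39, while the other sets have medians from -0.36 to -0.03.

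The genes whose pattern over the 10 arrays was most like that of Mertk were Mcm6 (Pearson r 0.997), Kpna2 (0.996) and Jdp2 (0.996), out of 12257 compared, of which 633 exceeded 0.95. For Gas6 they were H3f4 (0.991), Acvrl1 (0.986) and H2bc14 (0.985), with 180 above 0.95. For Thbs1 they included Dgkh (0.945) and Azin1 (0.937), with 0 above 0.95. The 10 points share arrays and a single contrast with EtoH, so these are descriptions only.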

How the data were processed

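RNA of RAW264.7 cells was measured on 10 one-colour Agilent arrays, 2 for each of 5 groups taken from the labels. Per the file headers, the deposited values are spot intensity from Agilent Feature Extraction 10.7.3.1, background-subtracted within each array and not scaled between arrays. The submitters' processing notes name limma without a step. Deposited signals were taken to log2 here and each array's 75th percentile was subtracted, after outlying spots were left out. A gene was represented by its probe with the highest mean among probes detected (well above background) on all arrays of 1 or more groups, which left 18051 genes, all 10 described here included. A probe counted as well above background where over 0.5 of its spots did. Per the authors' files, probe positions are on mm9. Exon and untranslated region placement was not analysed here.

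Groups were fitted together with limma 3.58.1 in R 4.3.3 (lmFit and eBayes, 5 residual degrees of freedom), two-sided, with Benjamini-Hochberg adjustment over all genes in a comparison and a threshold of 0.05. Where no array of the dimmer group was well above background, the fold is a lower bound. The mean of the bright group is set there against the mean, per array, of the dimmest signal passing the detection limit or the spot's own signal if higher. That dimmest signal is taken over the whole array, and a spot's own limit can be higher. Mrc1 on VSG22 replicate 1 lay at -3.84 (log2), above the dimmest passing signal there (-3.88), and was still not well above background. The bound holds only against that dimmest signal. Each of 2 slides holds all 5 groups and 1 replicate number. Deviations of same-numbered arrays correlated between groups with r from -0.04 to 0.32. The main fit did not treat the numbers as pairs. A shared slide effect was modelled only in the alternative with a replicate block. A patch is a spot with at least 3 of 24 neighbours well above background in 1 group only. Simulated data for the mean of the 4 held 18051 genes, with 200 changed genes for each size of change. There, 80% of changes of 1 log2 unit and 91% of 2 log2 units were recovered, with 11 false calls. In the real data 44.2% of genes were called, a far larger share, so these rates need not carry over. The alternatives were 3 other scalings, normexp (offset 50), no filter, 2 other probe rules, only the groups compared, a replicate block, each array left out, both Dex arrays left out and patches left out. Named genes outside the 10 are up to 4 called per list with the largest change, and the 3 most similar in pattern to Mertk, Gas6 and Thbs1; some that meet these rules are not reported here. The genes and lists were chosen with earlier results of these data known.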

Additional observations from a re-analysis of the deposited data

Results flagged for a closer look

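Scarf1, whose spot lies in a patch on the Dex arrays, was called among the 4 glucocorticoids (moderated F-test, limma adjusted p = 0.044). Its log2 changes against EtoH were 2.24 for Dex, 1.39 for FF, 0.06 for VSG22 and 0.45 for VSGC12. Over 20 alternatives this adjusted p ran from 0.0049 to 0.21 and stayed below 0.05 in 7. It was 0.17 without the filter on dim probes, through which Scarf1 passed only in Dex and FF, and 0.074 with the slide as a block.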

How the results depend on the processing

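For the mean of the 4 against EtoH, Mertk, Gas6, Thbs1, Cd36, Mrc1 and Scarf1 kept direction and call in every alternative giving a value. Scarf1 has no value with Dex patches left out. Scarf1, Mrc1 and Itgav have none with patches of any group left out. Calls were lost in 5 alternatives for Mfge8, 3 for Pros1 and 2 for Itgav. With the mean of a gene's probes, Msr1 went to 0.32 for the mean of the 4, by construction from its second probe. It went to 0.34 for Dex, 0.30 for FF, 0.33 for VSG22 and 0.32 for VSGC12. All 10 genes were then called for the mean, as were 7820 of 18030 genes tested, and 8 of the 10 for Dex (5679 genes). With the array median subtracted, genes called against EtoH fell to 3760 for the mean, 2033 for Dex, 2497 for FF, 1789 for VSG22 and 2370 for VSGC12, with 4 of the 10 called for FF, 4 for VSG22 and 4 for VSGC12; 160 genes differed among the compounds and 303 in some pair. That scaling moved the median of all genes by 0.12, and 70.3% of calls were then higher, against 49.0% here, 39.3% with the percentile over detected probes and 43.8% with quantile normalization. Without the filter the counts were 4925, 2369, 3314, 2713 and 3104, with 5 of the 10 for FF, 0 genes among the compounds (2005 at an unadjusted p below 0.05 in limma), 5 in pairs and 0 of the 10 in either. Among the compounds, 0 of the 10 were called with quantile normalization, nor with normexp, under which 27 genes were called and 182 in pairs. With the replicate block, 14 genes were called among the compounds, and Mrc1 joined Scarf1 so that 2 of the 10 were called in pairs; the adjusted p over the compounds was 0.043 for Mrc1 and 0.074 for Scarf1. With Dex patches left out, 0 genes differed among the compounds (2167 unadjusted) and 25 in pairs. None of the 10 was among them, but Scarf1 had no value there and could not be called. Leaving out patches of any group, an alternative chosen after seeing the data, left no value for Scarf1, Mrc1 and Itgav. Of the rest of the 10, 5 were called for FF. Among the compounds 0 genes were called (2009 unadjusted) and in pairs 21, with none of the 10 among them. With only the groups compared, 2067 genes were called for Dex, 8 and 0 of the 10 among the compounds, and 0 and 0 of the 10 in pairs (5680 genes unadjusted). Without both Dex arrays, 6 genes and 0 of the 10 differed among the compounds and 13 and 0 in pairs. Leaving out each array gave 4717 to 8947 genes and 7 to 9 of the 10 for the mean, 3115 to 6764 and 5 to 7 for Dex, 3918 to 7453 and 5 to 8 for FF, 2981 to 5787 and 4 to 7 for VSG22, 3766 to 7012 and 5 to 8 for VSGC12, 0 to 972 and 0 to 2 among the compounds, and 23 to 1968 and 0 to 2 in pairs. The counts of 972 and 1968 came without Dex replicate 1. The causes were not tested. Signal near background limits Mertk in EtoH, Scarf1, Thbs1 and Mrc1.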
